A study of Homo sapiens with 4 samples.

Results

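The lysosome and autophagy genes examined here are 39 named genes: 8 proteases, 8 glycosidases, 5 genes of lipid handling, 6 membrane proteins, 4 genes of the proton pump (V-ATPase), 6 autophagy genes and the 2 transcription factors *TFEB* and *TFE3*. They were given as a list of symbols, drawn up with earlier results of these data known, and matched to the Ensembl identifiers of the deposited tables. Levels are given in CPM, the unique molecular identifiers (UMIs, each counting 1 captured mRNA molecule) of a gene scaled to the same total in every library. All 39 were found among the 32991 identifiers listed for every library. Of these, 32 reached a mean of at least 10 CPM over the libraries, as did 6504 of all identifiers, and are called measured. The other 7 (*CTSF*, *CTSK*, *GAA*, *NPC1*, *LIPA*, *MCOLN1*, *TFEB*) are given by their values and are left out of counts and medians.

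Single-cell transcriptomes of A375, an established melanoma cell line with the BRAF V600E mutation, were recorded with the 10x Chromium v2 system. Untreated, sensitive cells (S) were set against single-agent-resistant cells raised under the BRAF inhibitor vemurafenib (RV) and against double-agent-resistant cells raised under vemurafenib with the MEK inhibitor cobimetinib (RVC) or trametinib (RVT). Resistant cells were cultured with the inhibitors for 10 to 14 days, at a fraction of the inhibitory concentration, and were freed of them 24 h before capture, with 10000 cells loaded per channel. Each condition is 1 library of 1 line, so no test between conditions was possible. Intervals below are exact 95% intervals of counting error only, and "called" means at least 2-fold apart by size.

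After filtering, 6334 S, 4177 RV, 7623 RVC and 8445 RVT cells were kept, with medians of 8807.5, 11553, 3959 and 2871 UMIs per cell. S and RV shared deeper libraries and an annotation of 33694 identifiers, RVC and RVT shallower ones and an annotation of 33538, so the addition of a MEK inhibitor and these library features cannot be told apart. Pairs of libraries shared 38 to 149 barcodes, at most 1.61% of a library. *TYR*, the pigment enzyme of melanocytes, was at 0 UMIs in every library, *PMEL* was at most 0.439 and *MLANA* at most 0.0303 CPM. The neural crest factor *SOX10* stood at 86.3, 39.9, 0 and 19.4 CPM in S, RV, RVC and RVT, and *S100B* at 32.8, 6.97, 0 and 0.276. This pair of markers of the labelled cell type had no UMI in RVC, for which a floor of 3 UMIs is 0.0910 CPM. The 7 melanoma markers, which also include *MITF* and *S100A1*, summed to 140, 70.4, 11.5 and 78.0 CPM. In RVC 3 of the 7 were at 0, and *MITF* held 70.9% of the 378 UMIs of the list. The labels name the same line for every library, and the paper reports that the identity of the line was checked beforehand. *S100B* was low in RVT as well. Whether the RVC and RVT cells come from the same A375 stock as the others cannot be told from the files, which bears on every value of these libraries. Of 7 macrophage and immune markers 3 to 4 were at 0 in each library, always with *PTPRC*, *TYROBP* and *C1QA* among them, and the list summed to 0.866 to 3.09 CPM. The highest sum was in RVC, where *CSF1R* held 94.1% of the 102 UMIs, and *LYZ* led in the other libraries. The 3 endothelial markers summed to 0.392 to 1.40 CPM, and of the epithelial pair *CDH1* was at 0 throughout and *EPCAM* at most 0.121. The 4 fibroblast markers summed to 2.56, 2.23, 46.0 and 35.5, led by *LUM* at 22.6 in RVC and 21.8 in RVT. Markers of undifferentiated melanoma summed to 2533, 2777, 653 and 442, of which *VIM* was 74.7% to 96.1%. The part of these differences in the values below was not tested.

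Lysosomes are acidic organelles in which proteases, glycosidases and lipid-cleaving enzymes break down cargo brought by endocytosis and autophagy. The V-ATPase pumps in the protons, LAMP proteins line the membrane, and autophagosomes form with lipid-bound ATG8 proteins (the LC3 and GABARAP families) that hold cargo receptors such as p62. The factors TFEB, TFE3, TFEC and MITF form the MiT/TFE family and bind E-box-like DNA. TFEB and TFE3 act on a palindromic variant in lysosomal promoters, the CLEAR element, and MITF, the master factor of the melanocyte lineage, on E-box and M-box sequences.

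Whether the members carry such letters was read from RefSeq promoter windows (GRCh38.p14), from 250 bases before to 50 after a start site, which held 31 of the 39 members. The CLEAR core TCACGTGA was found, on either strand, for 5 of 31 members (16.1%), against 1.18% of 27305 genes. The M-box TCATGTG was found for 5 members (16.1%), against 3.59% of genes, and the plain E-box CACGTG, which lies within every CLEAR core, for 9 of the 31, against 8.77%. A gene counts once if any of its windows holds the motif. The stretches below come from the 7 members with a CLEAR core or with more than 1 M-box, since these show how alike the letters are in genes whose ratios to S differed. A further core of *LAMP1* lies across its start site and is left out. The stretches run 5′ to 3′ on the gene's strand, hold only bases before the start site, and show CLEAR cores and M-boxes in capitals.
LAMP1, chr13:113297190-113297237, plus strand: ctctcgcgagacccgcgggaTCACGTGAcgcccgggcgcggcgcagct
ATP6V0D1, chr16:67481190-67481237, minus strand: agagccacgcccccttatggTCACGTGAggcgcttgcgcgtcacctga
TPP1, chr11:6619423-6619463, minus strand: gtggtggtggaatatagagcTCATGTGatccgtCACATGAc
GPNMB, chr7:23246632-23246739, plus strand: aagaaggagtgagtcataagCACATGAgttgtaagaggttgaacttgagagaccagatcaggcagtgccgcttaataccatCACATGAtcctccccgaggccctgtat
CTSA, chr20:45891289-45891334, plus strand: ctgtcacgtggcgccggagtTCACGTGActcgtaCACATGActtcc
GAA, chr17:80101484-80101576, plus strand: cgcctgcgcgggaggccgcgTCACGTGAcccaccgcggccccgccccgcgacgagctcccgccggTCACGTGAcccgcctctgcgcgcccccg
MCOLN1, chr19:7522562-7522623, plus strand: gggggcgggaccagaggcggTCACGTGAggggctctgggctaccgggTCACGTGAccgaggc

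Genes with the same letters did not all lie on the same side of S on the scale of library totals. Against S, the 5 members with a CLEAR core had log2 ratios of 2.19 (*LAMP1*), 0.60 (*ATP6V0D1*), 0.57 (*CTSA*), -0.63 (*GAA*) and -1.23 (*MCOLN1*) in RVT. The 5 with an M-box had 2.57 (*GPNMB*), 1.93 (*TPP1*), 1.19 (*SCARB2*), 0.57 (*CTSA*) and -0.70 (*CD63*). *GAA* and *MCOLN1* are below the cutoff and rich in G+C, and genes of like G+C content had low ratios in RVT. Less the median of such genes, all 5 with a CLEAR core lay above 0 in RVT, at 2.03 (*LAMP1*), 2.36 (*ATP6V0D1*), 1.38 (*CTSA*), 1.13 (*GAA*) and 1.15 (*MCOLN1*). On that scale 25 of the 32 measured members and 49.9% of all genes lay above S in RVT, with a median of 0.92 over the members, so nothing particular to genes with the core is shown. In RVC they still differed, at 0.87, 2.17, -0.21, -0.02 and -0.09. On this scale *CD63* remained below S in RVT, at -0.73, while the other M-box genes lay above. A match marks letters only and is no evidence of binding.

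*MITF* itself stood at 9.78 (8.99 to 10.6), 20.2 (19.0 to 21.4), 8.13 (7.18 to 9.16) and 41.3 (38.8 to 43.9) CPM in S, RV, RVC and RVT. It was thus high in RV and RVT and lowest in RVC, with an interval that overlaps that of S. The log2 ratios to S were 1.04 (0.90 to 1.19) in RV, -0.27 (-0.48 to -0.05) in RVC and 2.08 (1.93 to 2.23) in RVT. The RVC value was 0.01 when every cell was thinned to 1500 UMIs, with a *MITF* UMI in 91 RVC and 78 S cells. It stayed below 0 with equal weight for every cell, at -0.23. Under trimmed-mean (TMM) scaling the RV, RVC and RVT values were 1.00, -0.48 and 1.56. Less the median of genes of like G+C content they were 1.03, -0.67 and 1.54.

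In RV few genes of any kind lay 2-fold from S. None of the 32 measured members was called higher (1.89% of all measured genes were) and none lower (1.26% of all). Their log2 ratios ran from -0.51 (*LAMP1*) to 0.60 (*NPC2*) with a median of -0.0024, against 0.022 over all genes, and 16 of 32 lay above S (53.4% of all genes). The double-agent-resistant libraries differed from S far more, for members and for all genes alike. In RVC, 7 members were called higher (22.5% of all genes) and 6 lower (23.2% of all), with a median of 0.19 against 0.16 and 17 of 32 above S (54.5% of all). In RVT, 13 were called higher (28.6% of all) and 3 lower (24.3% of all), with a median of 0.70 against 0.21 and 24 of 32 above S (55.4% of all). Between the double-agent libraries, which share annotation, 11 members were called higher in RVT than in RVC (15.1% of all) and 1 lower (11.8% of all), with a median of 0.77 against 0.15 and 25 of 32 higher in RVT (56.9% of all). At 1.5-fold the counts higher and lower were 1 and 0 in RV (5.35% and 4.06% of all genes) and 13 and 12 in RVC (36.7% and 31.2% of all). They were 18 and 5 in RVT (39.7% and 31.5% of all), and 20 and 3 for RVT over RVC (30.3% and 21.2% of all).

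**Figure D1:**
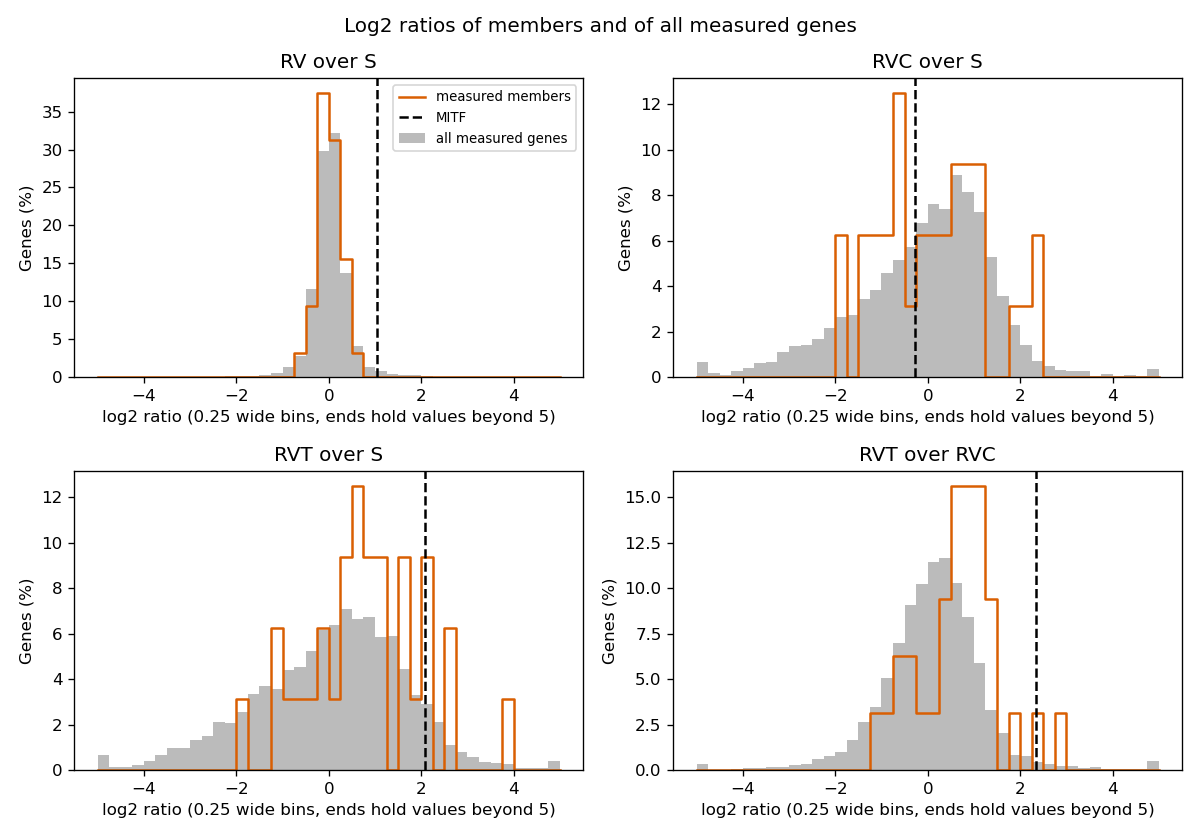
Histograms of log2 ratios in bins of 0.25 for the 32 measured members (line) and the 6504 measured genes (bars), as percent of each, with *MITF* as a dashed line. In RV the members lie within 2-fold of S while *MITF* lies at 1.04, and in RVT over RVC most members lie right of 0.

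These directions depend in part on scaling. Trimmed-mean (TMM) scaling lowered the median of all genes from 0.16 to -0.06 in RVC and from 0.21 to -0.30 in RVT, and that of the members to -0.03 and 0.18, so the RVC median of the members changed sign. Under it 5 members were called higher and 8 lower in RVC (16.2% and 26.9% of all genes), and 9 and 5 in RVT (16.5% and 33.5% of all). For RVT over RVC the counts were 4 and 2 (8.32% and 18.1% of all), and 7 of the 11 members called higher there (*CTSA*, *CTSZ*, *TPP1*, *NPC2*, *LAMP1*, *LAMP2* and *GABARAPL2*) fell short of 2-fold, at 0.70 to 0.98.

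**Figure D2:**
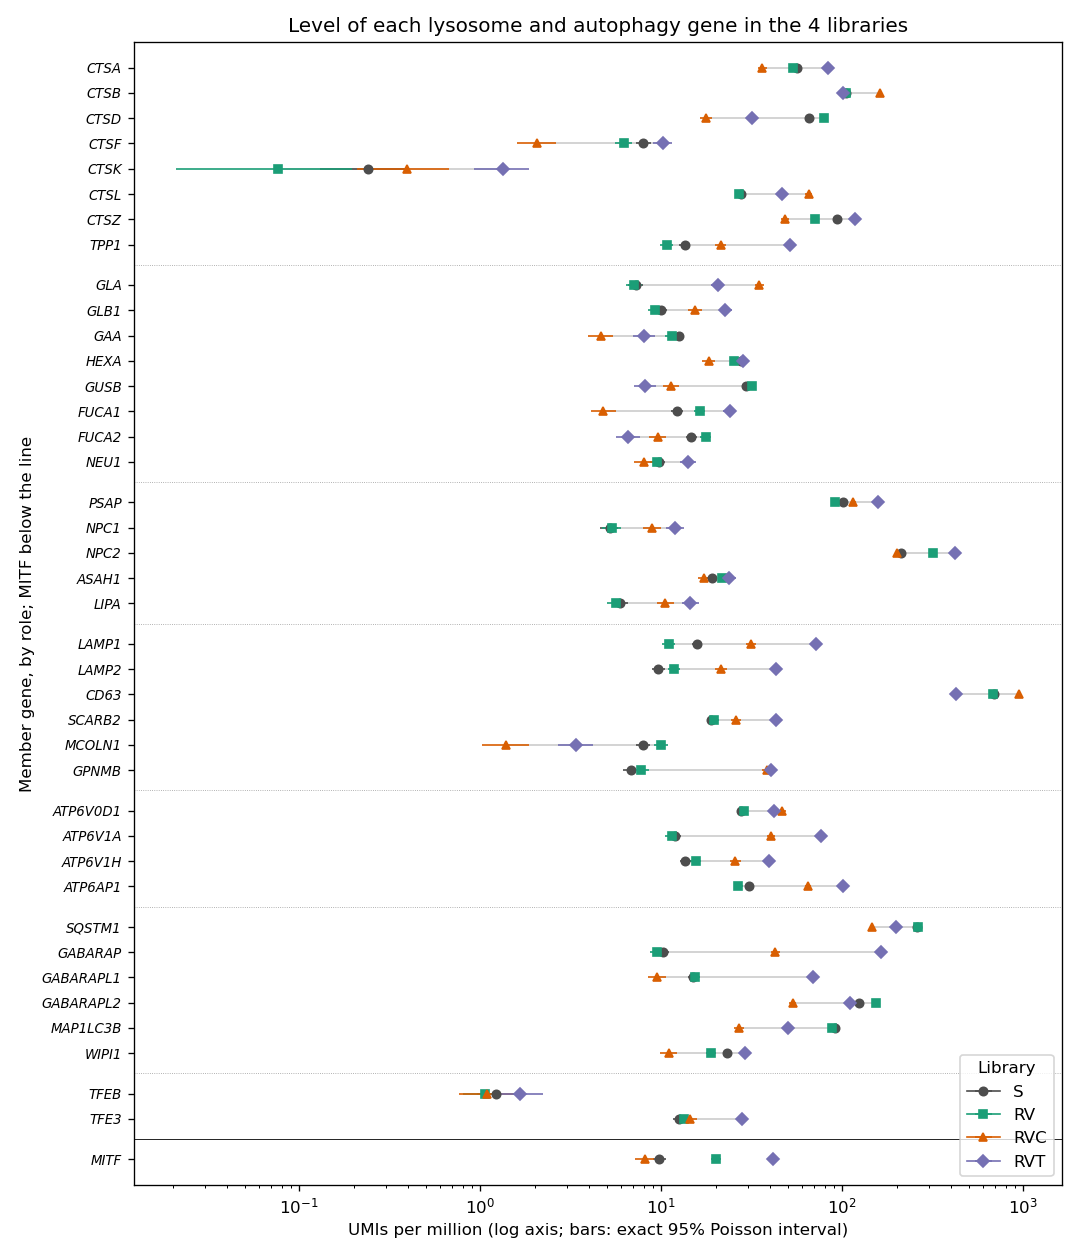
Level of each of the 39 members, and of *MITF*, in CPM on a log axis, with 1 point per library and bars for the exact 95% Poisson interval. S and RV points lie close together for most members, and 21 of the 32 measured members are highest in RVT on this scale (15 under TMM scaling).

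Among the proteases, cathepsins differed from one another in both size and direction. *CTSD*, the main lysosomal aspartic protease, stood at 65.4, 79.1, 17.7 and 31.8 CPM in S, RV, RVC and RVT. It was the only measured protease called lower against S, with log2 ratios of -1.88 (-2.01 to -1.76) in RVC and -1.04 (-1.15 to -0.93) in RVT. Its transcript end holds 65.2% G+C, and after centring each ratio on genes of like G+C content the values turned to 0.53 and 1.34. *CTSL*, a cysteine protease, stood at 27.6, 26.9, 65.5 and 46.5, highest in RVC, with a log2 ratio of 1.25 (1.15 to 1.34) there and 0.75 in RVT. *CTSB*, also a cysteine protease and the most abundant of the group in S, stood at 105, 106, 162 and 101, so that RVC alone stood above the rest.

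*TPP1*, a peptidase that trims the amino ends of proteins, stood at 13.5, 10.7, 21.3 and 51.4, with a log2 ratio of 1.93 (1.80 to 2.06) in RVT. *CTSA*, the protective protein of the galactosidase complex, stood at 56.4, 53.6, 36.2 and 83.4. *CTSZ*, a carboxypeptidase, stood at 94.0, 70.6, 48.6 and 118. The last pair were lowest in RVC and highest in RVT, and the log2 ratios of RVT over RVC were 1.21 (1.10 to 1.31) for *CTSA* and 1.28 (1.20 to 1.37) for *CTSZ*. Against S in RVT, *CTSZ* was 0.33 but -0.18 under TMM scaling. Of the proteases below the cutoff, *CTSF* stood at 7.98, 6.20, 2.06 and 10.2, and *CTSK*, known from osteoclasts, at 0.239, 0.0764, 0.394 and 1.34. *CTSK* rested on 4 to 34 UMIs per library.

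The glycosidases, which cleave sugars from glycolipids and glycoproteins, split. *GLA*, the alpha-galactosidase that is deficient in Fabry disease, stood at 7.23, 7.12, 34.9 and 20.5, with log2 ratios of 2.27 (2.11 to 2.43) in RVC and 1.51 (1.32 to 1.69) in RVT. *GUSB*, the beta-glucuronidase, stood at 29.4, 31.8, 11.4 and 8.19, with -1.37 (-1.53 to -1.21) and -1.84 (-2.06 to -1.63). The pair thus lay on opposite sides of S. Their transcript ends hold 47.6% and 46.8% G+C, and the cause of the difference was not tested.

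The fucosidases *FUCA1* and *FUCA2* parted as well. *FUCA1* stood at 12.3, 16.3, 4.79 and 23.9, and its log2 ratio of RVT over RVC, 2.32 (2.06 to 2.58), was close to that of *MITF*, 2.34 (2.15 to 2.54). The ratios to S differed, at -1.35 in RVC and 0.96 in RVT for *FUCA1* and -0.27 and 2.08 for *MITF*. *FUCA2* stood at 14.7, 17.6, 9.58 and 6.57, lowest in RVT at a log2 ratio to S of -1.16 (-1.41 to -0.92). Both were somewhat higher in RV than in S, by 0.42 and 0.26.

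*GLB1*, the beta-galactosidase, stood at 9.93, 9.22, 15.3 and 22.7, reaching a log2 ratio of 1.19 (1.02 to 1.36) in RVT, or 0.68 under TMM scaling and 0.76 after G+C centring, both short of 2-fold. *HEXA*, a subunit of beta-hexosaminidase, stood at 27.5, 25.4, 18.3 and 28.2, and *NEU1*, a sialidase, at 9.67, 9.45, 8.04 and 14.1. Both were lowest in RVC and within 2-fold of S throughout. On the same strand, *GLB1* overlaps *TMPPE*, and the 3′ ends of *HEXA* and *CTSD* overlap AC009690.1 and AC068580.4, in both annotations. Counts of these genes may therefore be incomplete. *GAA*, the acid alpha-glucosidase deficient in Pompe disease and below the cutoff, stood at 12.5, 11.4, 4.64 and 8.07, and its transcript end holds 59.6% G+C.

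The 5 genes of lipid handling each had their highest value in RVT on library totals, but *NPC2* and *ASAH1* were highest in RV under TMM scaling and after G+C centring. *NPC2*, which passes cholesterol within the lysosome, was second to *CD63* among the members in RV, RVC and RVT, at 210, 318, 202 and 419. Its log2 ratio of 0.60 (0.56 to 0.63) in RV was the highest of any member there, and it reached 1.00 (0.96 to 1.03) in RVT, just short of 2-fold. Under TMM scaling the RV and RVT values were 0.55 and 0.48, and after G+C centring 0.58 and 0.47. In RVC its value was -0.06 (-0.10 to -0.02), and 0.0020 with cells thinned to 1500 UMIs. *PSAP*, the precursor of the saposins, stood at 102, 90.8, 115 and 159, and *ASAH1*, the acid ceramidase, at 19.1, 21.7, 17.3 and 23.9, with overlapping intervals in RV and RVT. Under TMM scaling *ASAH1* in RVT turned from 0.32 to -0.20, and *PSAP* in RVC from 0.18 to -0.04. *NPC1*, the membrane partner of NPC2, stood at 5.19, 5.34, 8.92 and 12.0, and *LIPA*, the acid lipase, at 5.94, 5.65, 10.6 and 14.5, both under the cutoff.

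Lysosomal membrane proteins other than *CD63* were higher in RVT than in S, apart from *MCOLN1*. *LAMP1* stood at 15.7, 11.0, 31.3 and 71.8, lowest in RV, with log2 ratios of -0.51 (-0.67 to -0.36), 0.99 (0.86 to 1.12) and 2.19 (2.08 to 2.31). *LAMP2*, its partner in the membrane, stood at 9.66, 11.8, 21.5 and 43.2, with 2.16 (2.01 to 2.31) in RVT. *SCARB2*, the receptor that carries glucocerebrosidase to lysosomes, stood at 18.9, 19.7, 25.9 and 43.1, with 1.19 (1.07 to 1.31), or 0.67 under TMM scaling and 0.66 after G+C centring, both short of 2-fold. The 3 genes shared the order RVT, RVC and then the libraries without a MEK inhibitor.

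*GPNMB*, a glycoprotein of melanosomes and lysosomes and a known target of MITF, stood at 6.79, 7.75, 38.2 and 40.4. Its log2 ratios to S were 2.49 (2.33 to 2.66) in RVC and 2.57 (2.41 to 2.74) in RVT, and the 2 libraries differed by 0.08 (-0.04 to 0.20), or -0.22 under TMM scaling, while *MITF* differed between them by 2.34. *MCOLN1*, the calcium channel TRPML1, went the other way at 7.93, 9.96, 1.40 and 3.38, with -2.51 (-2.98 to -2.07) in RVC and -1.23 (-1.58 to -0.89) in RVT. It was below the cutoff, and its transcript end holds 62.4% G+C and is overlapped on the same strand by AC008878.2 and, at its last bases, by *PNPLA6*. Less the median of genes of like G+C content, *MCOLN1* lay at -0.09 in RVC and 1.15 in RVT.

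*CD63* (chr12:55725323-55729707 of GRCh38, minus strand), a tetraspanin of late endosomes and exosomes, was the most abundant member at 688, 682, 948 and 424, with *NPC2* close to it in RVT. It was highest in RVC and lowest in RVT, with a log2 ratio of RVT over RVC of -1.16 (-1.19 to -1.13), the only member called lower there. Since it made up 31.2%, 29.5%, 40.1% and 15.5% of all member UMIs, it weighed heavily in the sum. All 39 members summed to 2204, 2311, 2363 and 2741 CPM in S, RV, RVC and RVT, and the 38 without *CD63* to 1516, 1629, 1415 and 2317. Log2 ratios of the sum were 0.07, 0.10 and 0.31 against S, and 0.10, -0.10 and 0.61 without *CD63*. For RVT over RVC the sum gave 0.21 with *CD63* and 0.71 without it. Under TMM scaling the sum of all 39 turned to -0.11 in RVC, -0.20 in RVT and -0.09 for RVT over RVC.

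The 4 V-ATPase genes all lay above S in RVC and RVT. *ATP6V1A*, the catalytic subunit, stood at 12.0, 11.4, 40.5 and 76.4, with log2 ratios of 1.76 (1.62 to 1.89) in RVC and 2.67 (2.55 to 2.80) in RVT, or 1.18 and 1.81 after G+C centring. *ATP6AP1*, an accessory subunit, stood at 30.6, 26.7, 64.8 and 101, with 1.08 (0.99 to 1.17) and 1.73 (1.64 to 1.81). *ATP6V1H*, a regulatory subunit, stood at 13.6, 15.6, 25.7 and 39.6, with 0.92 and 1.54. These genes were highest in RVT and second in RVC, whereas *ATP6V0D1*, of the membrane sector, stood at 27.5, 28.9, 46.5 and 41.9 and was slightly higher in RVC. Its log2 ratio of RVT over RVC was -0.15, -0.45 under TMM scaling and 0.080 after G+C centring.

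All 4 genes also lay above S in RVC and RVT under TMM scaling, where *ATP6V0D1* in RVT was at 0.09. After G+C centring *ATP6V0D1* was at 2.17 in RVC and 2.36 in RVT, against 0.75 and 0.60 on library totals. The group's median log2 ratio was 1.00 in RVC and 1.63 in RVT, and 0.00 in RV. Its summed level was 83.7, 82.6, 178 and 259 CPM. Of 14 other subunits 9 were measured, with 4 called higher and 2 lower in RVC (22.5% and 23.2% of all genes) and again 4 and 2 in RVT (28.6% and 24.3% of all). *ATP6V0E1* was the largest rise in both libraries, at 100, 95.1, 486 and 565. *ATP6V0B* was the largest fall in RVT, at 210, 244, 57.1 and 47.1.

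The autophagy genes differed in make-up as well as in sum, which was 524, 549, 290 and 621 CPM. *GABARAP* (chr17:7240014-7242770 of GRCh38, minus strand), an ATG8 protein, stood at 10.2, 9.51, 42.8 and 163, with log2 ratios of 2.07 (1.93 to 2.21) in RVC and 4.00 (3.88 to 4.13) in RVT, the highest of any member. *GABARAPL1* stood at 15.0, 15.4, 9.49 and 69.3, low in RVC and high in RVT only, with 2.87 (2.69 to 3.05) between them. *GABARAPL2* stood at 125, 153, 53.2 and 110, and *MAP1LC3B*, the common marker of autophagosomes, at 90.8, 88.3, 26.9 and 50.1. For the latter pair the log2 ratios to S were -1.23 and -1.75 in RVC and -0.18 and -0.86 in RVT, so they were lowest in RVC and no higher than S in RVT. The RVT values of *GABARAPL2* were -0.69 under TMM scaling and -0.89 after G+C centring, and those of *MAP1LC3B* were -1.37 and -1.50, both past 2-fold.

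Shares within the ATG8 family do not depend on library scaling, and since UMIs count molecules at their 3′ end they were not divided by length. Counting *GABARAP*, *GABARAPL1*, *GABARAPL2*, *MAP1LC3A*, *MAP1LC3B* and *MAP1LC3B2*, *GABARAP* made up 3.75% (3.46 to 4.06) of the family's UMIs in S and 3.14% (2.88 to 3.43) in RV. Its share was 31.9% (30.5 to 33.3) in RVC and 40.7% (39.7 to 41.6) in RVT, where it was the leading ATG8 transcript. *GABARAPL2* led in the other libraries, with 45.8%, 50.6% and 39.6%, and held 27.5% in RVT. *MAP1LC3B* went from 33.4% in S to 29.2%, 20.1% and 12.5% in RV, RVC and RVT. *MAP1LC3B2* is a near-identical copy of *MAP1LC3B* that held at most 0.372%, and counts of the pair may be incomplete. The *GABARAP* locus overlaps AC120057.2 on the same strand, away from its 3′ end, in both annotations.

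**Figure D3:**
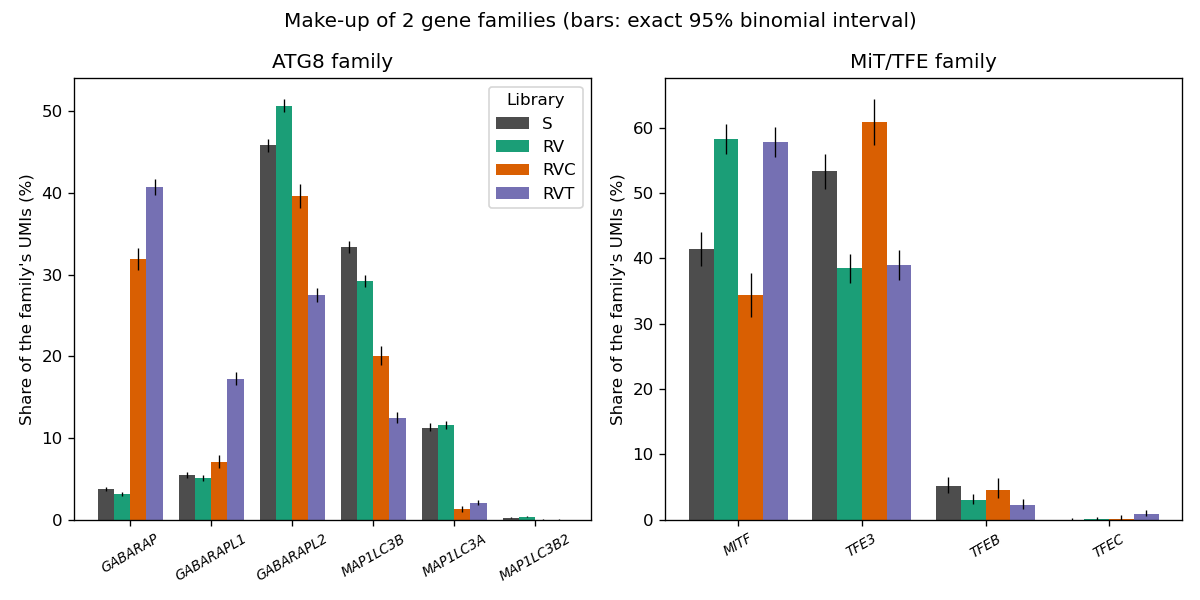
Share of each gene in the UMIs of the ATG8 family (left) and of the MiT/TFE family (right), in percent per library, with exact 95% binomial intervals as bars. *GABARAP* takes 3.75% in S and 40.7% in RVT, and *MITF* takes 58.3% in RV and 57.8% in RVT, against 41.4% in S and 34.4% in RVC.

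*SQSTM1*, which encodes the cargo receptor p62, stood at 261, 264, 146 and 199, with log2 ratios of -0.83 (-0.88 to -0.79) in RVC and -0.39 (-0.43 to -0.34) in RVT. Its transcript end holds 58.0% G+C, and centring on G+C content turned these to 0.58 and 1.37. *WIPI1*, which binds phosphoinositides on forming autophagosomes, stood at 23.1, 18.8, 11.0 and 29.2. It was called lower in RVC at -1.07 (-1.25 to -0.91), a call lost with thinned cells at -0.89, and its RVT value of 0.34 turned to -0.18 under TMM scaling and -0.09 after G+C centring. All 6 autophagy members were higher in RVT than in RVC, with a median log2 ratio of 1.23, of which *SQSTM1* had the smallest, 0.45 (0.39 to 0.50).

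Of the transcription factors, *TFE3* stood at 12.6, 13.3, 14.4 and 27.8, with a log2 ratio of 1.14 (0.99 to 1.29) in RVT, short of 2-fold under TMM scaling at 0.63, and 0.08 in RV. Its RVC value of 0.19 was -0.02 under TMM scaling. *TFEB* was low throughout at 1.23, 1.07, 1.09 and 1.65, from 36 to 72 UMIs, and every interval of its ratios spanned 0. *TFEC* had 0 UMIs in S, for which the 3-UMI floor is 0.0512 CPM, and 3, 1 and 16 UMIs in RV, RVC and RVT. *MITF* held 58.3% (56.0 to 60.6) of the family's UMIs in RV and 57.8% (55.5 to 60.1) in RVT. Its share was smaller in S, with 41.4% (38.8 to 44.1), and in RVC, with 34.4% (31.0 to 37.8). By UMIs, *MITF* was therefore the leading family transcript in RV and RVT and *TFE3* in S and RVC, with 53.4% and 60.9%. G+C centring moved the RVT log2 ratio of *MITF* from 2.08 to 1.54 and that of *TFE3* from 1.14 to 1.12. The shares were not corrected for G+C content, so the lead of *MITF* in RVT holds for uncorrected UMIs only.

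To see which members resembled *MITF*, the signs and sizes of the 3 log2 ratios to S were compared. *FUCA1*, *NPC2*, *ASAH1* and *GABARAPL1* shared the signs of *MITF* (up in RV, down in RVC, up in RVT), which is 4 of 32 members and 5.04% of all measured genes. On library totals the RVC interval of *ASAH1* spanned 0 (-0.29 to 0.0049). With cells thinned to 1500 UMIs, 8 members and 24.3% of all genes shared its signs. There *MITF* in RVC lies at 0.01, from few cells, and has no clear sign. Of the genes just named, only *NPC2* was among them. Under TMM scaling 3 members did (*FUCA1*, *NPC2* and *TFE3*), and 3.14% of all. *ASAH1* then lay at -0.20 in RVT and *GABARAPL1* at -0.0030 in RV. With totals without ribosomal protein and mitochondrial genes 3 members shared the signs, and 5.07% of all. By Euclidean distance over the 3 ratios, *GABARAPL1* (1.09), *NPC2* (1.19) and *TFE3* (1.42) were nearest to *MITF* of the measured members, and *GUSB* (4.18), *CTSD* (3.60) and *MAP1LC3B* (3.47) were farthest. Below the cutoff, *MCOLN1* lay at 4.06. The median distance was 2.16 over the 32 members and 2.49 over the 6503 measured genes other than *MITF*, members included. None of the 32 members lay under 1, against 0.477% of those genes. *GABARAPL1*, the nearest, had a log2 ratio of 0.04 (-0.10 to 0.18) in RV, where that of *MITF* was 1.04.

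**Figure D4:**
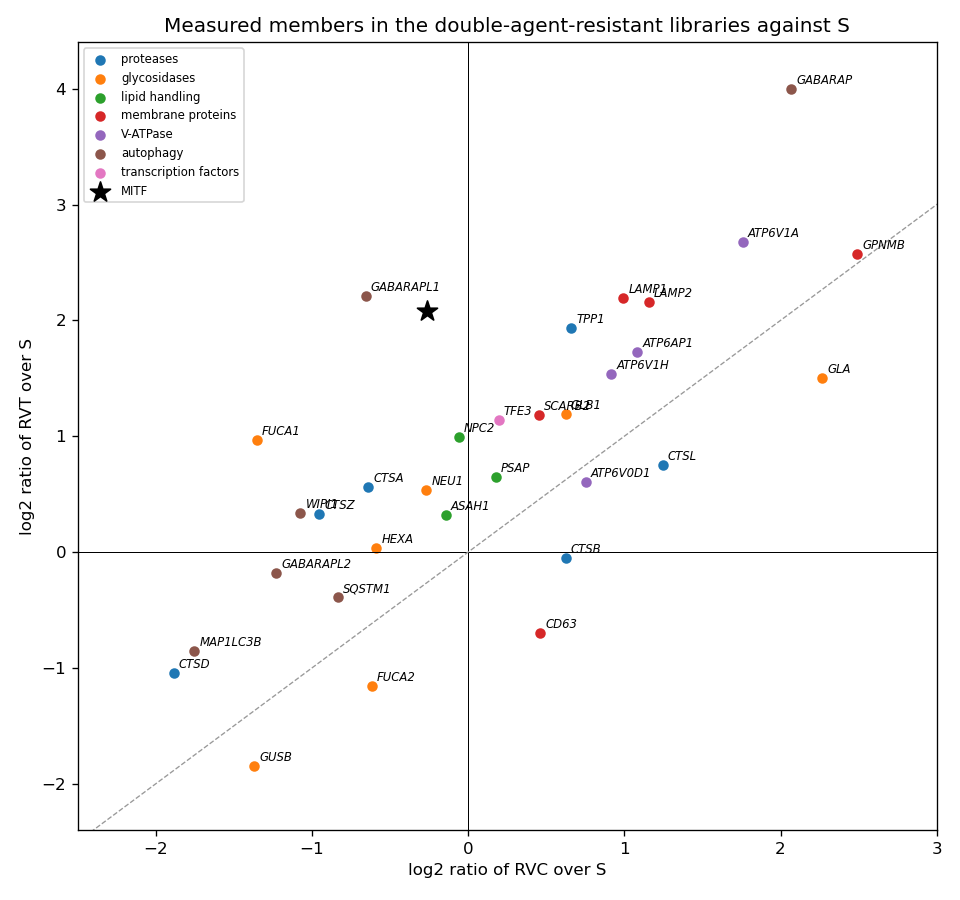
Log2 ratio to S of the 32 measured members in RVC (horizontal) and RVT (vertical), coloured by role, with *MITF* as a star and a dashed line where both are equal. Most members lie above the line, *MITF* lies near *GABARAPL1*, and *GABARAP* lies highest at 4.00.

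By order of levels, 21 of 32 members were highest in RVT (37.6% of all genes) and 13 were lowest in RVC (25.7% of all). Under TMM scaling 15 were highest in RVT (25.3% of all) and 14 lowest in RVC (21.7% of all), with *CTSZ*, *HEXA*, *NPC2*, *ASAH1*, *GPNMB* and *WIPI1* no longer highest in RVT. After G+C centring the counts were 20 (33.9% of all) and 11 (28.7% of all). The share called higher than S in both double-agent libraries was 6 of 32 (*GLA*, *LAMP2*, *GPNMB*, *ATP6V1A*, *ATP6AP1* and *GABARAP*), against 14.8% of all genes. Under TMM scaling 3 of the 6 lost the call, *GLA* at 0.99 in RVT and *LAMP2* and *ATP6AP1* at 0.94 and 0.87 in RVC, and 8.23% of all genes were called. After G+C centring *LAMP2* lost it, at 0.73 in RVC, and *ATP6V0D1* joined, against 10.1% of all genes. *CTSD* and *GUSB* were called lower in both, 2 of 32 against 17.6%. Under TMM scaling *MAP1LC3B* joined them, 3 of 32 against 22.4%. After G+C centring *GUSB*, *FUCA2* and *MAP1LC3B* were called lower in both, 3 of 32 against 15.3%. Neighbours in this order could often not be told apart by counting error. In RV against S, for example, intervals spanned 0 for *CTSB*, *CTSL*, *GLA*, *GPNMB*, *GABARAP* and *TFE3*. The interval of a log2 ratio reached at most 0.28 to either side for any measured member.

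Across all 6504 genes the ratios went with the G+C content of the last 500 transcript bases, with a Spearman correlation over genes, which are not independent, of 0.01 in RV, -0.35 in RVC, -0.41 in RVT and -0.17 for RVT over RVC. In the richest of 20 bins of G+C content the median log2 ratio was -2.42 in RVC and -2.38 in RVT. After centring on such bins, 7 members were called higher and 6 lower in RVC (16.5% and 22.4% of all genes), and 16 and 3 in RVT (21.5% and 23.6% of all). For RVT over RVC the counts were 8 and 1 (10.4% and 14.3% of all), with *NPC2* (0.81), *LAMP2* (0.48) and *GABARAPL2* (0.67) now short of 2-fold. *GABARAP* kept log2 ratios of 1.85 and 3.80 in RVC and RVT, *GLA* of 2.15 and 1.34, *LAMP1* of 0.87 and 2.03, and *GUSB* of -1.49 and -2.01. In RVT the centring also moved *LAMP2* to 1.42, *GPNMB* to 1.93 and *FUCA2* to -1.87, by over 1.5-fold each. Of the measured members called, *CTSD* was the 1 whose direction turned in RVC and RVT.

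**Figure D5:**
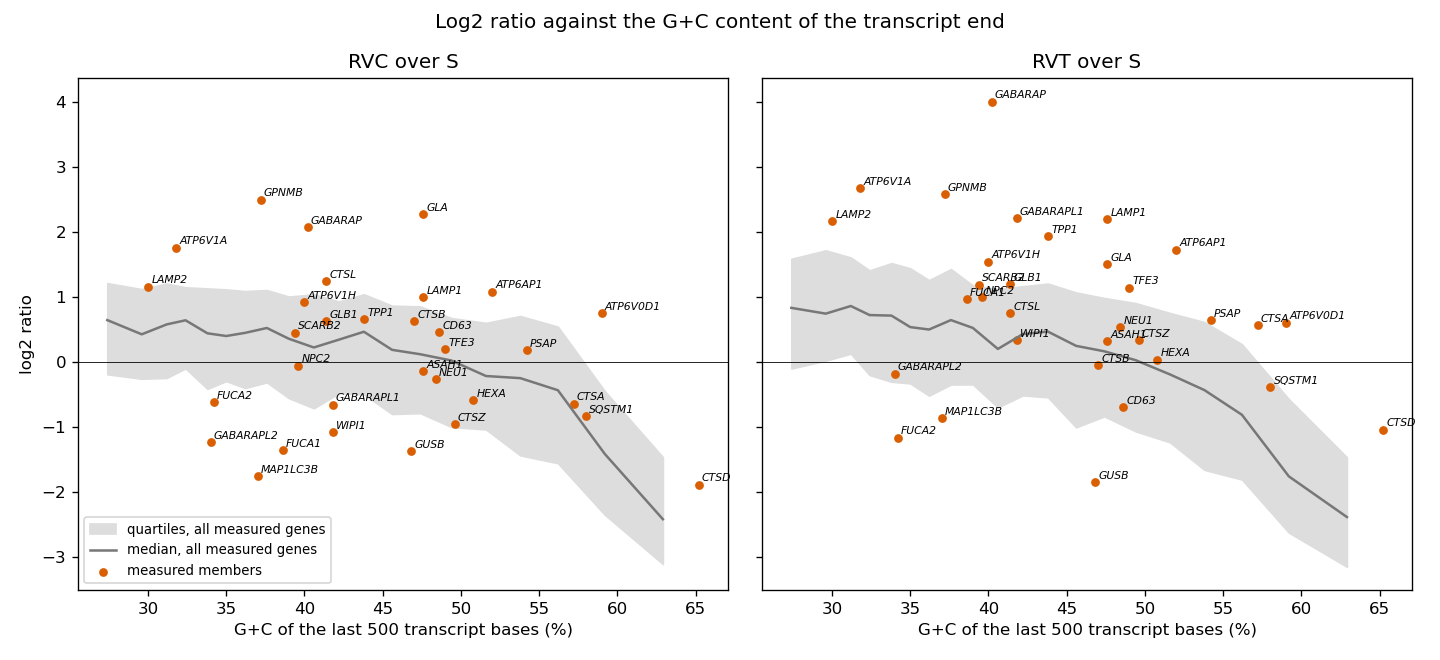
Log2 ratio to S in RVC (left) and RVT (right) against the G+C content of the last 500 transcript bases in percent, with measured members as points and the median and quartiles of all measured genes in 20 bins as line and band. The line falls to -2.42 and -2.38 at the G+C-rich end, where *CTSD* (65.2%) lies at -1.88 and -1.04.

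Within a library, the level of the members was compared between cells with and without a *MITF* UMI, at equal depth and unthinned. Cells were first thinned to 1500 UMIs, which left out 397 RVC and 845 RVT cells below that depth and none of S and RV. A *MITF* UMI was then found in 78 of 6334 S, 110 of 4177 RV, 91 of 7226 RVC and 462 of 7600 RVT cells. Summed members in cells with over cells without that UMI had ratios of 0.927 (0.814 to 1.05) for S and 0.930 (0.835 to 1.03) for RV. For RVC the ratio was 1.05 (0.946 to 1.17), and for RVT it was 1.02 (0.976 to 1.07). All 4 intervals spanned 1. In unthinned cells a *MITF* UMI was found in 8.13%, 19.0%, 3.29% and 11.3% of S, RV, RVC and RVT cells, and the ratios were 0.919 (0.902 to 0.937), 0.948 (0.935 to 0.961), 0.909 (0.876 to 0.942) and 1.00 (0.982 to 1.03), so that without thinning the intervals lay below 1 in S, RV and RVC. All these intervals, like those of other comparisons between cells below, take UMIs as independent. They leave out differences from cell to cell and are therefore too narrow. In unthinned cells those with *MITF* were the deeper ones, with a median of 5191 against 3923 UMIs in RVC. After thinning, cells with *MITF* held 245 member UMIs in S and 363 in RV, against 11834 and 25780 before it. The ratios of S and RV were close with and without thinning, so the thinned intervals do not show that equal depth removed a difference. In RVT, the library with most cells with a *MITF* UMI after thinning, the thinned interval leaves room for a difference of up to 1.07-fold. A cell without a *MITF* UMI at this depth is not shown to lack the transcript.

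Member by member, the interval excluded 1 for *GPNMB* in RVC, at 2.30 (1.21 to 3.97) from 13 UMIs in cells with *MITF*, and for *ATP6V0D1* in RVT, at 1.47 (1.05 to 2.02) from 42, of 155 such ratios. Cells with a *GPNMB* UMI carried more of the other members, summed, than cells without, by 1.11 (1.06 to 1.16) in RVC and 1.11 (1.06 to 1.16) in RVT. *CD63*, 40.1% of all member UMIs in RVC, is part of this sum, and the ratios were not taken without it. In S and RV these ratios were 0.913 (0.797 to 1.04) and 0.976 (0.840 to 1.13). In unthinned cells they were 1.03 (1.02 to 1.05) and 1.07 (1.05 to 1.09) for the double-agent libraries. For S the unthinned ratio was 1.05 (1.03 to 1.07) and for RV it was 0.980 (0.962 to 0.998). The thinned intervals of S and RV spanned 1, so thinned cells give no direction in these libraries.

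The number of member UMIs per thinned cell had a median of 3 in S, RV and RVC and of 4 in RVT. Its variance over mean, which is 1 for counting alone, was 1.30, 1.29, 1.41 and 1.18, and 1.13, 1.19, 1.16 and 1.13 without *CD63*. *CD63* alone had 1.33, 1.20, 1.46 and 1.25, so that much of the excess in S and RVC came with this gene. A *CD63* UMI was seen in 62.3%, 62.7%, 71.5% and 44.0% of cells. *GABARAP* was seen in 1.44% (1.16 to 1.76), 1.32% (0.993 to 1.71), 6.66% (6.09 to 7.26) and 21.7% (20.8 to 22.7), with a variance over mean of 0.986 to 1.01, so its higher level in RVT was spread over cells as counting would spread it. Lysosomal genes have no cell type in such a culture that should lack them, so the share of cells given by free RNA could not be measured.

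Other genes of the same compartments were counted from lists, on library totals only. Neither these lists nor the other V-ATPase subunits above were counted under TMM scaling or after G+C centring. Both changed the counts of the members in RVT. Of 33 other lysosomal enzymes 15 were measured. For all genes the shares called higher and lower were 22.5% and 23.2% in RVC, 28.6% and 24.3% in RVT, and 15.1% and 11.8% for RVT over RVC, and the counts of each list below are to be read against these. The enzymes were called higher and lower in 5 and 4 cases in RVC, 9 and 2 in RVT, and 9 and 0 for RVT over RVC. Their medians were 0.49, 1.51 and 1.04, against 0.16, 0.21 and 0.15 over all genes. *CTSC*, a dipeptidyl peptidase, was the largest fall in RVT, at 463, 288, 50.6 and 156.

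Of 20 other membrane and sorting proteins 7 were measured, with 2 higher and 2 lower in RVC (22.5% and 23.2% of all genes) and 2 and 0 in RVT (28.6% and 24.3% of all). *IGF2R*, the mannose 6-phosphate receptor that sorts enzymes to lysosomes, was the largest rise in RVT, at 6.76, 5.40, 13.0 and 23.0. Of 41 other autophagy genes 24 were measured, with 1 higher and 6 lower in RVC and 8 and 8 in RVT, the latter near the shares of all genes, and a median of 0.07 in RVT against 0.21 over all genes. *VMP1*, which acts in autophagosome formation at the endoplasmic reticulum, was the largest rise in RVT, at 59.1, 55.0, 64.4 and 448. *MAP1LC3A* was the largest fall in RVC, at 30.7, 35.0, 1.73 and 8.34.

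Of 18 genes of mTORC1 at the lysosome, the kinase complex that restrains TFEB and TFE3, 11 were measured, with 1 higher and 3 lower in RVC and 2 and 2 in RVT, against 22.5% and 23.2%, and 28.6% and 24.3%, of all genes. *LAMTOR5*, of the Ragulator scaffold, was the largest rise in both, at 206, 238, 647 and 757. *MLST8*, a core subunit, was the largest fall in both, at 77.6, 75.3, 4.67 and 4.88. Of 15 pigment cell targets of MITF only *ACP5* and *RAB38* were measured. *RAB38*, a GTPase of melanosome traffic, stood at 17.0, 15.2, 1.67 and 8.19, and *ACP5*, an acid phosphatase, at 9.04, 5.36, 34.2 and 12.7, and neither was higher in RV, where *MITF* was.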

How the data were processed

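Single-cell RNA libraries of 4 A375 cultures were analysed, 1 per condition. The authors deposited a table of raw UMI counts per gene and cell for each sample, per the labels made with bcl2fastq 2.20.0.422 and Cell Ranger (version not given in the sources used here) on GRCh38. The tables hold 4328 to 10427 barcodes.

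From these counts, cells with at least 500 genes and at most 20% mitochondrial UMIs were kept, and the highest doublet scores were removed, at 0.8% per 1000 barcodes, because the tool's own threshold marked at most 5 cells of a library. Counts were summed per gene and divided by library totals of 25407545 to 58611860 UMIs, giving CPM, whose floor (3 UMIs) was 0.0512 to 0.118. Intervals were exact Poisson, Clopper-Pearson and conditional binomial ones (scipy 1.17.1), checked on simulated data. TMM factors came from edgeR 4.0.16, with no test. G+C content came from the last 500 transcript bases of GENCODE 29, in 20 bins. Cells were thinned with a fixed seed. All members were named by role, and from other lists only the largest rise and fall. Members and lists were chosen with earlier results of these data known.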

Additional observations from a re-analysis of the deposited data

Results flagged for a closer look

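For 8 measured members, RVC and RVT lay on opposite sides of S with counting intervals that excluded 0 in both, as did 13.7% of all 6504 measured genes, and the difference between conditions was not tested because each is 1 library. The log2 ratios of RVT over RVC were 1.21 for *CTSA*, 1.28 for *CTSZ*, 2.32 for *FUCA1*, 0.81 for *NEU1*, 1.05 for *NPC2*, 2.87 for *GABARAPL1* and 1.41 for *WIPI1*, all lower in RVC, and -1.16 for *CD63*, which was higher in RVC. Under TMM scaling *CTSZ* and *WIPI1* lay below S in both libraries, and with cells thinned to 1500 UMIs the RVC value of *NPC2* was 0.0020.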

How the results depend on the processing

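No paired analysis was possible because each condition has 1 library. Leaving out a replicate was not possible for the same reason. Across 17 alternative settings, 2 of them chosen after seeing the data, most summary values moved little, and calls were counted by size only. TMM scaling was an exception, with 7 summary values the same, 6 moved and 4 reversed. A ratio is named as reversed where its sign changed and its interval as reported excluded 0. Filters on cells (all deposited barcodes, at most 10% mitochondrial UMIs, no doublet removal) moved none of the summary values, while at least 1000 genes per cell gave sums of 0.079 in RVC and 0.29 in RVT.

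TMM scaling gave log2 ratios of the summed members of 0.025 in RV, -0.11 in RVC, -0.20 in RVT and -0.089 for RVT over RVC, and medians of -0.027 in RVC, 0.18 in RVT and 0.47 for RVT over RVC, with 5 members lower in RVT and 4 higher and 2 lower for RVT over RVC. It reversed the sums in RVC, in RVT and for RVT over RVC, and turned the sign of the RVC median. Of single genes it reversed *PSAP* (-0.035) and *TFE3* (-0.019) in RVC and *CTSF* (-0.16), *CTSZ* (-0.18), *ASAH1* (-0.20) and *WIPI1* (-0.18) in RVT. Totals without ribosomal protein and mitochondrial genes gave sums of 0.014, -0.045 (reversed), 0.28 and 0.32 and medians of 0.041 in RVC and 0.88 for RVT over RVC.

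Equal weight for every cell gave a median of 0.023 in RV and sums of 0.12 in RVC and 0.19 for RVT over RVC. Thinning gave a median of 0.019 in RV, sums of 0.13 in RVC and 0.18 for RVT over RVC, 8 members with the signs of *MITF*, and reversed *CTSF* in RV (0.13), *NPC2* (0.0020), *TFE3* (-0.031) and *MITF* (0.014) in RVC, and *LIPA* for RVT over RVC (-0.0061). Centring on G+C content gave medians of 0.92 in RVT and 0.54 for RVT over RVC, and reversed *CTSD* (0.53, 1.34) and *SQSTM1* (0.58, 1.37) in RVC and RVT, *WIPI1* in RVT (-0.092) and *ATP6V0D1* for RVT over RVC (0.080). Of the members below the cutoff, chosen after seeing the data, it reversed *GAA* (1.13) and *MCOLN1* (1.15) in RVT.

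With members at a mean of at least 1 CPM the RVC median was 0.059. Without *CD63* the sums were 0.10, -0.10 (reversed), 0.61 and 0.71, and the variance over mean was 1.13 in S and 1.16 in RVC. At 1.5-fold, 1 member was higher in RV, 13 higher and 12 lower in RVC, 5 lower in RVT, and 20 higher and 3 lower for RVT over RVC, to be read against 5.35%, 36.7%, 31.2%, 31.5%, 30.3% and 21.2% of all genes in this order. In unthinned RVC cells the log2 ratio of members with over without *MITF* was -0.14 (0.08 when thinned). The cause of these shifts was not tested. Depth limits values under 0.118 CPM.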

Other observations

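In RV, 6 of 4177 cells thinned to 1500 UMIs held at least 5 UMIs of *SQSTM1*, the gene of p62, and 1 of them held 21. The highest number in a cell was 5 in S, 4 in RVC and 6 in RVT. The variance over mean of *SQSTM1* per cell was 1.36 in RV, against 1.12, 1.09 and 1.11 in S, RVC and RVT, and without the cell that held 21 it was 1.11 in RV, so the excess rests on 1 cell. Cells with at least 3 *SQSTM1* UMIs carried the other 38 members at higher levels than cells with none in S, RV and RVT. In S the values were 2263 (2004 to 2547) against 1964 (1930 to 1998) CPM, for RV they were 2626 (2268 to 3024) against 2070 (2028 to 2114), and for RVT 3053 (2671 to 3475) against 2569 (2535 to 2603). In RVC the order was the opposite, at 1750 (1345 to 2239) against 2317 (2285 to 2349), from 24 cells. With any *SQSTM1* UMI in place of 3, thinned cells had ratios to cells with none of 1.06 (1.03 to 1.09), 1.04 (1.00 to 1.08), 0.998 (0.966 to 1.03) and 1.03 (1.01 to 1.06) for S, RV, RVC and RVT, the RVC value from 1371 cells. Unthinned, the ratios were 1.01 (0.993 to 1.03) and 0.999 (0.977 to 1.02) for S and RV. For RVC and RVT they were 0.955 (0.941 to 0.969) and 0.985 (0.970 to 1.00). Of the unthinned intervals none lay wholly above 1, and that of RVC lay below it. Unthinned cells with *SQSTM1* were the deeper ones, with a median of 9031 against 7688 UMIs in S. Whether S and RVT lay above 1 thus depended on thinning. The sums include *CD63* and were not taken without it.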
